A study of Mus musculus with 32 samples.

Results

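Myofibroblast contractile genes encode the muscle-type actin cytoskeleton that activated fibroblasts share with smooth muscle. The 9 genes described here were Acta2, Actg2, Tagln, Cnn1, Cnn2, Cald1, Myl9, Tpm1 and Tpm2, chosen by name out of 18194 genes named by the array annotation. They were measured by 21 probe sets, 17 on the Affymetrix array type called array A here and 4 on array B. The cells were early passage primary mouse embryonic fibroblasts (MEFs), which are connective tissue cells grown from embryos. There were 16 RNA extracts, each run on both array types (32 samples), in 4 groups of 4 replicates. Wild type and Oct-1 mutant cells were each studied without and with irradiation. Oct-1 is the ubiquitous octamer-binding protein made from Pou2f1, and the level of Pou2f1 was not analysed here. The labels state neither the mutant allele, the strain, the radiation dose and timing, nor whether replicates came from separate embryos or cultures, so the p-values measure the spread between these samples, which may be technical.

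Contractile genes are classic targets of serum response factor (SRF), which binds a DNA motif called the CArG box and is activated by the myocardin-related coactivators when actin monomers are used up in filaments. TGF-beta raises the same genes as fibroblasts become myofibroblasts, the contractile cells of healing wounds and scars. Fibroblasts grown on stiff plastic commonly carry stress fibres containing smooth muscle actin, so these genes are usually abundant in MEF cultures.

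The CArG box was searched because it is the motif that contractile gene promoters are best known for. RefSeq promoter windows of build GRCm38.p6, limited to the 250 bases before the start site that each table entry uses, were matched for 7 of the 9 genes (8 windows). Actg2 and Tagln had no window to search. Exact matches on either strand were present in 2 of these 8 windows, those of Cnn2 and Myl9, compared with 482 of all 32841 windows (1.47%). An exact match was CC, then only A or T, then GG. Stretches departing from it in any letter were not counted, such as ccctatatgg and ccttgtttgg in the Acta2 window. The Cnn2 and Myl9 stretches are shown 5′ to 3′ on the plus strand with the box in capitals. They were chosen because they hold the only exact matches among the member windows. The box begins 56 bases before the start site used for Cnn2, within chr10:79988524-79988573, and 161 bases before the one used for Myl9, within chr2:156775283-156775332. A table entry's start site can lie inside the gene's full annotated extent, as it does for Myl9, whose extent begins at 156775408. Both printed stretches lie before the annotated extent of their gene.
Cnn2: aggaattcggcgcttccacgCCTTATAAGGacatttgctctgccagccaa
Myl9: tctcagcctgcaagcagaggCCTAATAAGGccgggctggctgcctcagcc
A match is a description of the letters in these windows. Myl9 and Cnn2 differed between wild type and mutant by 0.13 and 0.07 on the log2 scale, with overlapping intervals, and the difference between the 2 genes was not tested.

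Of the 21 probe sets, 18 were bright enough to be tested, and each of the 9 genes had at least 1 among them. The 3 dim ones were Acta2 1456658_at (mean 4.45), Cald1 1433146_at (3.16) and Tpm1 1447713_at (2.07), all on the log2 scale used throughout. Each gene had a probe set on array A with a mean of at least 11.50, where the array medians lay between 6.16 and 6.28. The labelled cell type was set beside marker lists. The threshold for testing was low, a mean of 4.97 on array A and 3.36 on array B. It kept 13576 of 22690 and 13507 of 22575 probe sets, so passing it is weak evidence of expression. Among the markers, Abcc9 (pericyte), Ckm (muscle) and Epcam (epithelial) passed on array B only. All 12 fibroblast markers were bright enough to be tested, as were 8 of 11 smooth muscle and pericyte markers, 4 of 15 skeletal and cardiac muscle markers, 4 of 8 epithelial markers and 3 of 8 macrophage and blood markers. None of the 7 endothelial markers was, and the same held for Des, the muscle intermediate filament gene, and Myod1, the master regulator of skeletal muscle. Myh11, the smooth muscle myosin heavy chain, had group means between 5.63 and 6.45 on its tested probe set. These ran from below to just above the array A medians. In these bulk samples, fewer cells of a type and less RNA per cell cannot be told apart.

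The replicates came in 2 sets. The numbers in the sample titles fall into 2 separate runs, with replicates 1 and 2 of every group in the first and replicates 3 and 4 in the second, and samples of one run deviated together on both array types. The labels do not say what the runs stand for. The replicate number was therefore also fitted as a block, which compares samples of the same number with each other. Both fits are given for the members wherever the block changed a call or moved a count of calls by more than 1.5 times.

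**Figure D1:**
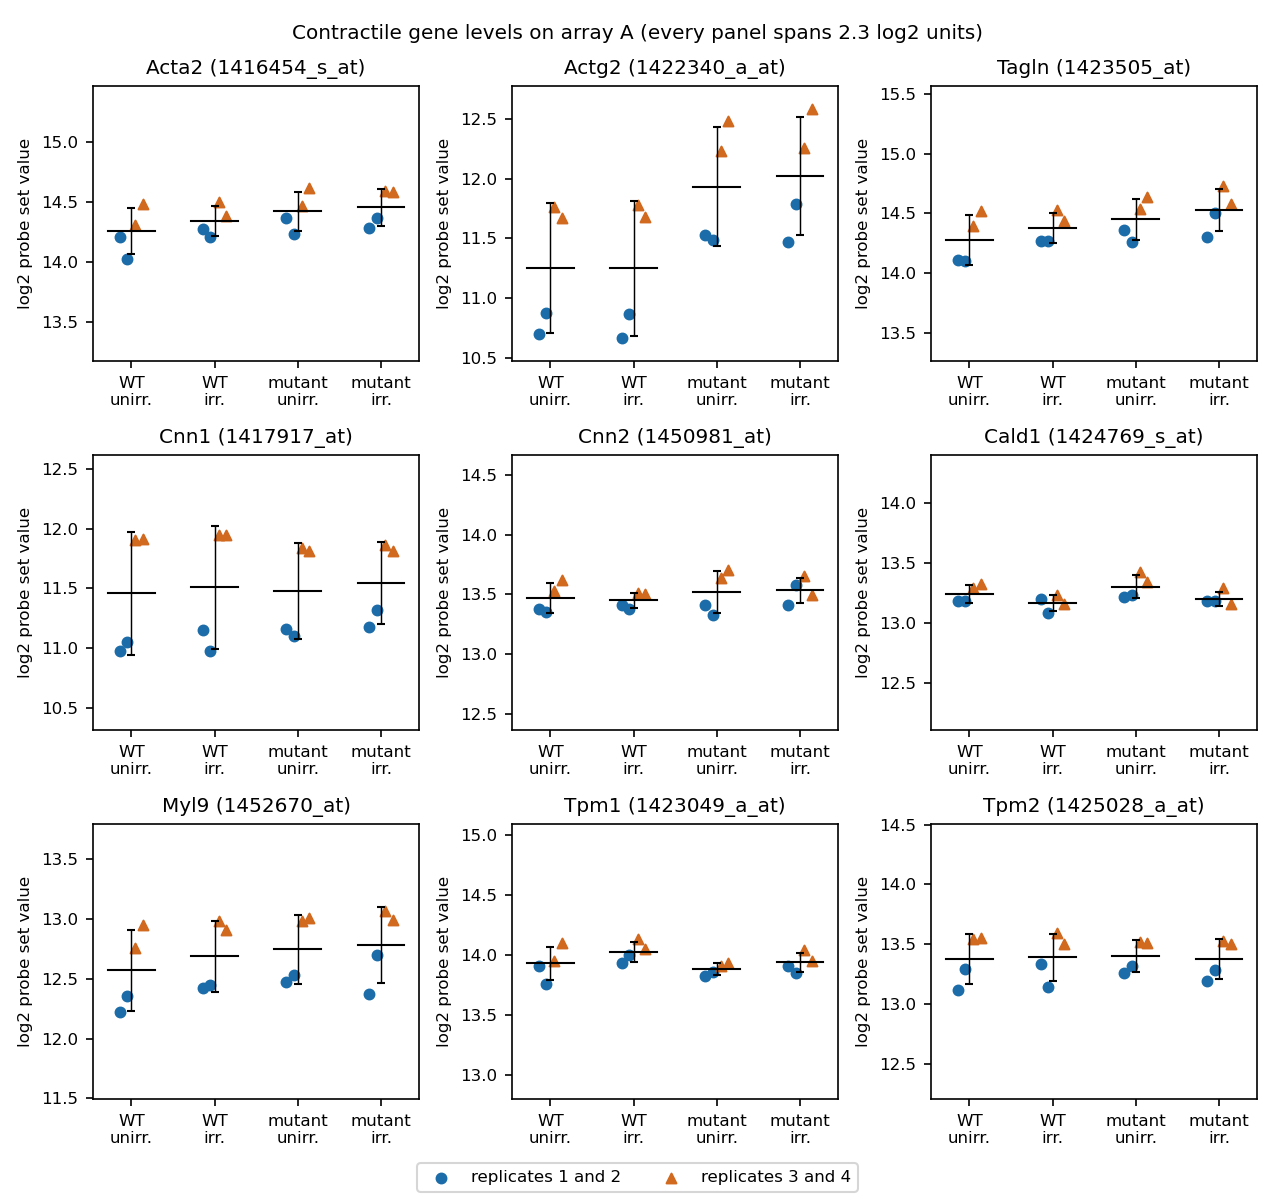
Log2 probe set values on array A (y axis, each panel spanning 2.3 units) for the brightest probe set of each gene in the 4 groups (x axis; WT, wild type; irr., irradiated). Circles are replicates 1 and 2, triangles replicates 3 and 4, horizontal lines group means and bars ± 1 SD (n = 4). In the Actg2 panel the mutant means are 11.93 and 12.03 against 11.25 in both wild type groups, and in the Cnn1 panel all triangles lie above all circles.

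Actg2, the gamma smooth muscle actin typical of gut smooth muscle, showed the largest difference between genotypes averaged over irradiation. In unirradiated cells 1 probe set of Cald1 differed by more, in the other direction (-0.77 against 0.68). The Actg2 probe set (1422340_a_at) read 10.70, 10.88, 11.76 and 11.67 in unirradiated wild type replicates 1 to 4. The irradiated wild type read 10.67, 10.87, 11.78 and 11.68. Mutant cells read 11.53, 11.49, 12.23 and 12.48 without irradiation and 11.47, 11.79, 12.26 and 12.58 with it. The genotypes overlapped when all replicates were pooled, the first-run mutant samples lying near the second-run wild type samples. Within each run every mutant sample lay above every wild type sample, and the mutant was higher in 8 of 8 pairs of the same replicate number and treatment.

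Averaged over irradiation, Actg2 was 0.73 higher in the mutant (1.66-fold), with an SE of 0.23 and an adjusted p of 0.0607 in limma with 4 group means. With the replicate block the SE was 0.05 and the adjusted p 9.68e-08. Actg2 also rose in the mutant within each run taken alone, by 0.79 in the first (adjusted p = 0.000161) and 0.67 in the second (adjusted p = 0.00103). The blocked differences were 0.68 in unirradiated cells (SE 0.08, adjusted p = 2.16e-05) and 0.78 in irradiated cells (SE 0.08, adjusted p = 5.67e-06). The blocked call held when each of the 16 extracts was left out in turn, with adjusted p at most 7.77e-07 for the averaged difference. Without the block, the averaged difference passed the threshold on leaving out Oct-1 mutant irradiated replicate 1 (0.82, adjusted p = 0.0379), wild type unirradiated replicate 3 (0.81, adjusted p = 0.0464) or wild type irradiated replicate 3 (0.82, adjusted p = 0.0425). By group mean Actg2 was lowest in wild type cells, 11.25 ± 0.54 without and 11.25 ± 0.56 with irradiation (SD, n = 4), followed by the unirradiated mutant at 11.93 ± 0.50 and the irradiated mutant at 12.03 ± 0.49. Neighbours of one genotype in that order differed by less than their spread.

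Acta2, the alpha smooth muscle actin used as the standard marker of myofibroblasts, differed less. Its bright probe set (1416454_s_at) read 14.21, 14.02, 14.31 and 14.48 in unirradiated wild type replicates 1 to 4 and 14.27, 14.21, 14.50 and 14.38 in the irradiated wild type. The unirradiated mutant read 14.37, 14.23, 14.47 and 14.62 and the irradiated mutant 14.28, 14.37, 14.59 and 14.58. The groups overlapped, and the mutant was the higher sample in 8 of 8 pairs of the same number and treatment. The averaged difference was 0.14 (1.10-fold). Its SE was 0.07 and its adjusted p 0.276 with 4 group means, against 0.04 and 0.0165 with the block.

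The array B probe set of Acta2 (1444105_at) gave a larger difference. Wild type samples read 8.85, 8.64, 9.49 and 9.44 without irradiation and 8.70, 8.67, 9.40 and 9.33 with it. Mutant samples read 9.34, 9.33, 9.78 and 9.75 without irradiation and 9.33, 9.33, 9.82 and 9.47 with it. The first-run wild type samples stood apart at the low end, and all 8 mutant samples lay above them. The averaged difference was 0.45 (1.37-fold), with adjusted p = 0.202 with 4 group means (SE 0.16) and 0.00174 with the block (SE 0.07). It was 0.61 in the first run (adjusted p = 0.0208) and 0.29 in the second (adjusted p = 0.287). Both probe sets kept the blocked call for the averaged difference on leaving out any 1 of the 16 extracts.

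The blocked calls of 1444105_at within a single treatment were less stable: 0.44 in unirradiated cells (adjusted p = 0.035) and 0.46 in irradiated cells (adjusted p = 0.0298). The first was lost on leaving out any of 9 extracts, namely Oct-1 mutant unirradiated replicates 1 to 4, wild type unirradiated replicates 1, 2 and 3, and replicate 3 of both irradiated groups (differences 0.37 to 0.49, adjusted p 0.0521 to 0.123). The second was lost on leaving out any of 7, namely Oct-1 mutant irradiated replicates 1, 2 and 3 and wild type irradiated replicates 1 to 4 (differences 0.40 to 0.50, adjusted p 0.0501 to 0.119). The suffix of 1416454_s_at marks, in Affymetrix naming, probes that may also match related transcripts, and actin genes are closely related. The values of the 2 Acta2 probe sets are therefore given separately, and the share of signal from other actins was not tested. The ubiquitous cytoplasmic actin gene Actb had group means between 14.85 and 14.87 on its bright probe set (1436722_a_at). There the genotype difference was 0.02 (SE 0.05, adjusted p = 0.899). The other tested Actb probe set (1419734_at) had group means between 6.66 and 7.89, with SDs up to 2.62. On that probe set the genotype difference was 0.8 (SE 0.73, adjusted p = 0.575).

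Tagln, which encodes the actin-bundling calponin relative SM22 alpha, moved closely with Acta2. It read 14.11, 14.10, 14.39 and 14.52 in unirradiated wild type replicates 1 to 4, and 14.27, 14.27, 14.53 and 14.44 in the irradiated wild type. The unirradiated mutant read 14.36, 14.26, 14.54 and 14.64 and the irradiated mutant 14.30, 14.50, 14.73 and 14.58. The mutant sample was the higher one in 8 of 8 pairs although the groups overlapped. The averaged difference was 0.16 (1.12-fold), with adjusted p = 0.252 with 4 group means (SE 0.08) and 0.00975 with the block (SE 0.04), and the blocked call held on leaving out any 1 extract (adjusted p at most 0.0263).

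The calponins, which bind actin and dampen myosin's ATPase, did not pass the test between genotypes in either fit. Cnn1, the smooth muscle calponin, read 10.98, 11.05, 11.90 and 11.91 in unirradiated wild type replicates 1 to 4 and 11.16, 11.10, 11.84 and 11.81 in the unirradiated mutant. Irradiated cells read 11.15, 10.98, 11.95 and 11.95 in wild type and 11.18, 11.32, 11.86 and 11.81 in the mutant. The samples split by run and not by genotype, and the mutant was higher in 4 of 8 pairs. The averaged difference of Cnn1 was 0.03 (blocked 95% confidence interval -0.08 to 0.13). Cnn2, the calponin found outside muscle as well, had group means between 13.45 and 13.53 and an averaged difference of 0.07 (blocked interval -0.02 to 0.16).

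Cald1 encodes caldesmon, another actin-binding inhibitor of myosin, and its probe sets disagreed. The 3 array A probe sets differed between genotypes by -0.04 (1424768_at), 0.05 (1424769_s_at) and 0.10 (1424770_at), and none passed the test in either fit. The array B probe set 1433147_at was lower in the mutant. Its mean was 6.60, where the array B medians lay between 3.67 and 3.78. It read 6.96, 7.42, 6.48 and 6.84 in unirradiated wild type replicates 1 to 4 against 6.16, 6.79, 5.47 and 6.19 in the unirradiated mutant. Irradiated cells read 6.73, 7.09, 6.65 and 6.65 in wild type and 6.57, 6.93, 6.28 and 6.33 in the mutant. The mutant was lower in 8 of 8 pairs, with the groups overlapping.

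The averaged difference of 1433147_at was -0.51 (SE 0.18, adjusted p = 0.2 with 4 group means; SE 0.08, adjusted p = 0.00351 with the block). In unirradiated cells it was -0.77, with adjusted p = 0.345 and, blocked, 0.00644. Both blocked calls held on leaving out any 1 extract. Within the runs taken alone the averaged difference was -0.44 and -0.58, with adjusted p of 0.198 and 0.264. Which Cald1 transcripts 1433147_at reports is not stated in the annotation.

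Myl9, the regulatory light chain whose phosphorylation switches on smooth muscle and non-muscle myosin, read 12.22, 12.36, 12.76 and 12.95 in unirradiated wild type replicates 1 to 4. The irradiated wild type read 12.42, 12.45, 12.98 and 12.91. Mutant samples read 12.47, 12.53, 12.98 and 13.01 without irradiation and 12.37, 12.70, 13.07 and 12.99 with it. All second-run samples lay above all first-run samples, and within a run the genotypes overlapped. The mutant was higher in 7 of 8 pairs, with an averaged difference of 0.13 (1.10-fold; adjusted p = 0.634 with 4 group means, 0.0246 with the block). The blocked call was lost on leaving out any of 7 extracts, namely Oct-1 mutant irradiated replicates 2 and 3, Oct-1 mutant unirradiated replicate 1, wild type irradiated replicates 2 and 4, and wild type unirradiated replicates 2 and 3 (differences 0.11 to 0.13, adjusted p 0.0516 to 0.0586).

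Tpm2 encodes beta-tropomyosin, which lies along the actin filament and sets access for myosin, and 2 of its 4 probe sets rose in the mutant with the block. The first, 1419738_a_at, read 12.98, 12.94, 13.11 and 13.17 in unirradiated wild type replicates 1 to 4 and 13.01, 12.93, 13.32 and 13.27 in the irradiated wild type. The mutant read 13.05, 13.03, 13.30 and 13.37 without irradiation and 13.10, 13.24, 13.34 and 13.42 with it. The mutant was higher in 8 of 8 pairs, by 0.14 on average (adjusted p = 0.256 with 4 group means, 0.00799 with the block).

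For 1449577_x_at, the unirradiated wild type read 10.22, 10.21, 10.66 and 10.24 and the unirradiated mutant 10.71, 10.75, 10.84 and 10.45. Irradiated samples read 10.24, 10.33, 10.35 and 10.41 in wild type and 10.25, 10.52, 10.44 and 10.57 in the mutant. The unirradiated groups overlapped through wild type replicate 3 and mutant replicate 4 only, and the irradiated groups overlapped as well. The averaged difference was 0.23 (adjusted p = 0.0641 with 4 group means, 0.0175 with the block), and 0.35 in unirradiated cells (adjusted p = 0.0884 and, blocked, 0.0213). The unblocked difference in unirradiated cells passed the threshold without wild type unirradiated replicate 3 (0.46, adjusted p = 0.0133) or without Oct-1 mutant unirradiated replicate 4 (0.43, adjusted p = 0.0454). The blocked one was lost without any of replicates 1, 2 and 3 of the unirradiated mutant or replicates 1, 2 and 4 of the unirradiated wild type (differences 0.30 to 0.34, adjusted p 0.0571 to 0.0868). The unblocked averaged difference passed without Oct-1 mutant unirradiated replicate 4 (0.27, adjusted p = 0.0283), Oct-1 mutant irradiated replicate 1 (0.26, adjusted p = 0.0367) or wild type unirradiated replicate 3 (0.29, adjusted p = 0.0096). Whether 1449577_x_at (mean 10.45) also reads other transcripts was not tested. The brightest Tpm2 probe set, 1425028_a_at (mean 13.39), differed by 0.01 and 1419739_at by 0.06, and neither passed in either fit.

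Tpm1, the alpha-tropomyosin gene, held the only member call between genotypes in the fit with 4 group means. The call came from its dimmest tested probe set, 1456623_at, which read 8.49, 8.54, 8.39 and 8.33 in irradiated wild type replicates 1 to 4 and 8.67, 8.87, 8.76 and 8.95 in the irradiated mutant. These groups did not overlap. Unirradiated cells read 8.68, 8.68, 8.66 and 8.39 in wild type and 8.66, 8.57, 8.63 and 8.66 in the mutant, which overlapped. The irradiated difference was 0.38 (1.30-fold, SE 0.08, adjusted p = 0.0191; blocked adjusted p = 0.00926), and the unirradiated one 0.03 (adjusted p = 0.948).

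The irradiated Tpm1 difference missed the threshold in the unblocked fit without Oct-1 mutant irradiated replicate 2 (0.36, adjusted p = 0.0583), Oct-1 mutant irradiated replicate 4 (0.33, adjusted p = 0.0737), wild type irradiated replicate 3 (0.36, adjusted p = 0.0559) or wild type irradiated replicate 4 (0.34, adjusted p = 0.0629). It was 0.25 in the first run alone (adjusted p = 0.293). The difference averaged over irradiation was 0.20 (SE 0.06, adjusted p = 0.0429), or 0.09 in the first run and 0.31 in the second. That call was lost in 12 of the 16 fits that left out 1 extract, all but those without Oct-1 mutant unirradiated replicate 2, Oct-1 mutant irradiated replicate 1, wild type unirradiated replicate 1 and wild type irradiated replicate 2 (adjusted p up to 0.0916). With the block the averaged adjusted p was 0.0256, and it was lost without replicate 4 of any of the 4 groups or without wild type irradiated replicate 3 (0.0502 to 0.0624). The 2 bright Tpm1 probe sets lay slightly the other way, at -0.07 (1423049_a_at) and -0.09 (1423721_at), and did not pass in either fit.

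In all, limma with 4 group means called 0 of 18 member probe sets between genotypes in unirradiated cells (2 at an unadjusted p under 0.05), 1 in irradiated cells and 1 averaged over irradiation. Of the 27083 probe sets tested in all, 2.16%, 2.09% and 6.25% were called in the same comparisons. With the replicate block, 4 members were called in unirradiated cells (3 higher and 1 lower), 3 in irradiated cells (all higher) and 9 averaged over irradiation (8 higher and 1 lower, in 7 genes), against 6.42%, 6.02% and 13.9% of all probe sets. In percent of the 18 members these counts were 22.2%, 16.7% and 50.0%. The gene lists below are counted by the brightest probe set of each gene. Counted that way, 0 of the 9 genes were called averaged over irradiation with 4 group means. With the block 4 were, namely Acta2, Actg2, Tagln and Myl9, all higher. The median member difference averaged over irradiation was 0.08, against 0.01 over all probe sets.

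**Figure D2:**
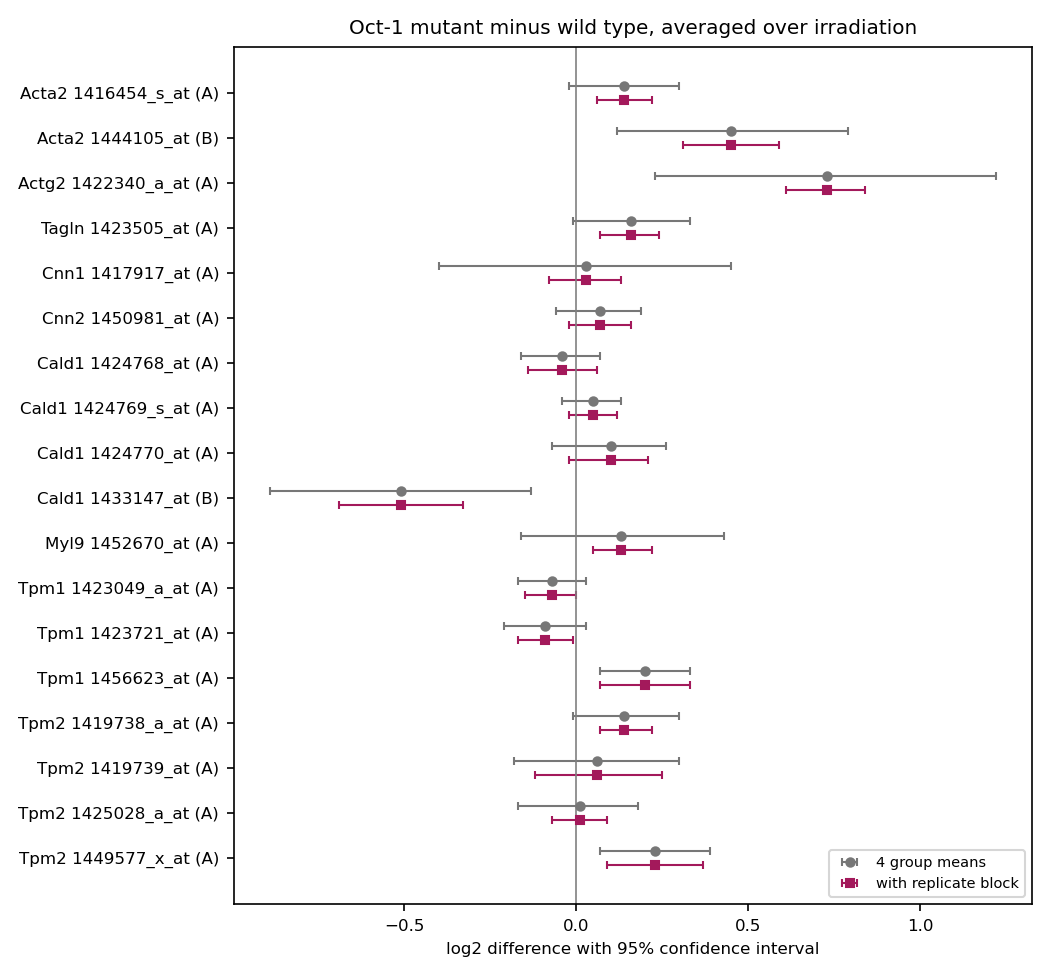
Log2 difference between Oct-1 mutant and wild type, averaged over irradiation (x axis), for each tested probe set (y axis, array type in brackets), with 95% confidence intervals. Grey circles are from the fit with 4 group means and purple squares from the fit with the replicate block. The Actg2 point at 0.73 keeps its place while its interval narrows from 0.23 to 1.22 to 0.61 to 0.84, and Cald1 1433147_at is the only called member below 0.

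No member passed the test for irradiation. The 18 differences between irradiated and unirradiated wild type cells ran from -0.17 to 0.12 with a median of 0.01, and 0 were called against 2.31% of all probe sets. In mutant cells they ran from -0.24 to 0.37 with a median of 0.04, and 0 were called against 2.67%. Averaged over genotype they ran from -0.12 to 0.11, and 0 were called against 7.51%. Unadjusted p lay under 0.05 for 0, 2 and 1 members in these 3 comparisons, and the lowest adjusted p was 0.376, 0.251 and 0.176. The blocked fit also called 0, 0 and 0, against 6.11%, 7.15% and 14.9% of all probe sets, with 1, 5 and 3 members at an unadjusted p under 0.05.

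Actg2 differed by 0.00 between irradiated and unirradiated wild type cells (blocked 95% interval -0.16 to 0.16) and by 0.09 in the mutant (-0.07 to 0.25). Acta2 1416454_s_at differed by 0.08 (-0.03 to 0.20) and 0.03 (-0.08 to 0.15). Tagln differed by 0.10 (-0.02 to 0.22) and 0.08 (-0.04 to 0.20). Over all 18 probe sets the blocked intervals stayed within -0.40 to 0.36 in wild type and -0.44 to 0.63 in the mutant. The intervals without the block were wider, within -0.71 to 0.70 in wild type and -0.61 to 0.90 in the mutant. These bounds set the size of change that the data leave possible under each fit. They do not show that irradiation left the genes unchanged.

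Leaving out 1 extract added an irradiation call for 2 members in the blocked fit. Cald1 1424769_s_at was lower in irradiated cells, averaged over genotype, by an amount that passed without Oct-1 mutant irradiated replicate 2 (-0.10, adjusted p = 0.0496), Oct-1 mutant unirradiated replicate 1 (-0.10, adjusted p = 0.0474) or wild type irradiated replicate 1 (-0.10, adjusted p = 0.0326). Tpm2 1449577_x_at in the mutant was -0.24 with all extracts (blocked adjusted p = 0.099), and passed without Oct-1 mutant irradiated replicate 4 (-0.31, adjusted p = 0.0495) or Oct-1 mutant unirradiated replicate 4 (-0.33, adjusted p = 0.0251).

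**Figure D3:**
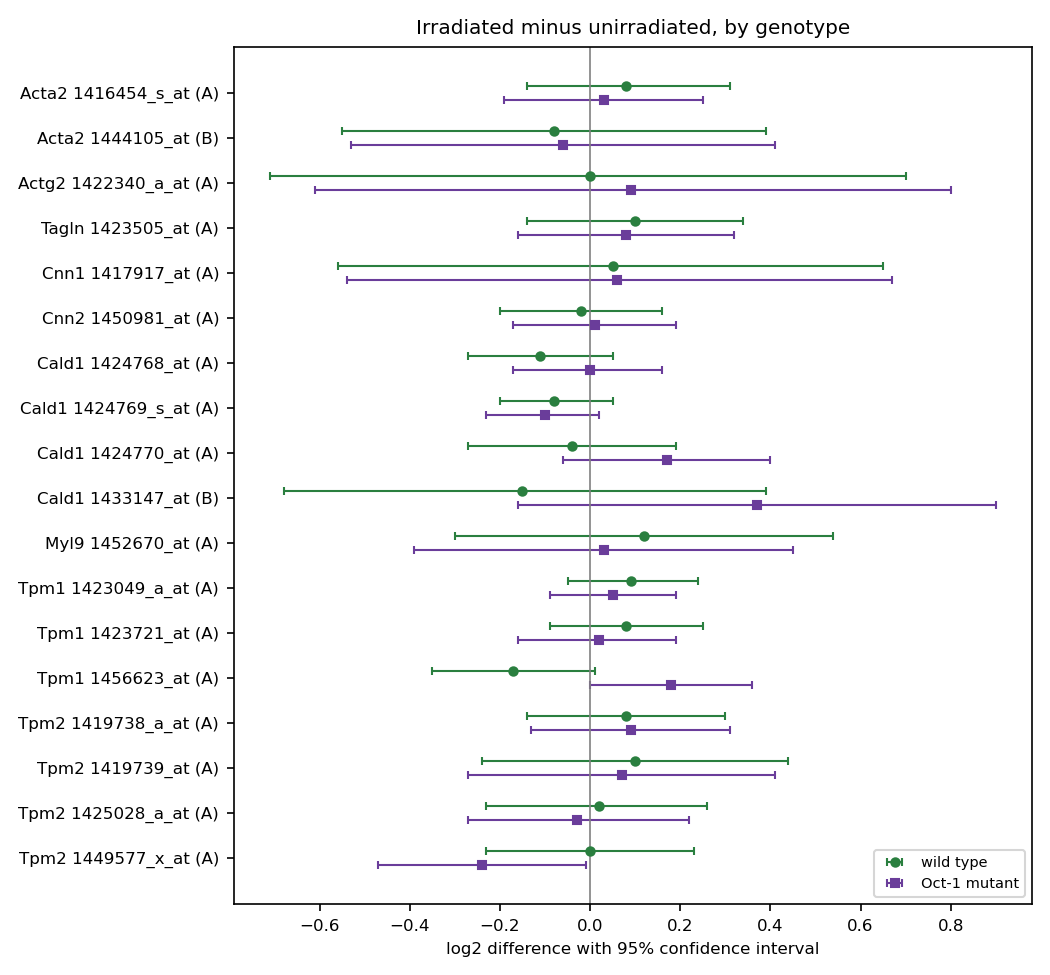
Log2 difference between irradiated and unirradiated cells (x axis) for each tested probe set (y axis, array type in brackets), with 95% confidence intervals from the fit with 4 group means. Green circles are wild type and purple squares Oct-1 mutant cells. The points lie between -0.24 and 0.37, and the wide intervals belong to probe sets with a large difference between replicate sets, such as Actg2 and Cnn1.

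The irradiation effect was then compared between genotypes. No member passed (0 of 18 in both fits), and 0% of all probe sets passed in either fit, with 394 at an unadjusted p under 0.05 without and 837 with the block. The member with the lowest unadjusted p was Tpm1 1456623_at, with differences of -0.17 in wild type and 0.18 in mutant cells. The difference between these effects was 0.35 (SE 0.12, adjusted p = 1).

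The 2 runs of replicates also differed in these genes. This contrast is no part of the study's design and is given as a description without a test, chosen after the data had been seen. In 10 of the 18 member probe sets (55.6%) both second-run samples exceeded both first-run samples in all 4 groups, against 4.75% of all 27083 probe sets tested. No member was lower in all 4 groups. The median member difference, second run minus first, was 0.21, against 0.01 over all probe sets.

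Actg2 had the largest of these differences at 0.88 (1.84-fold), followed by Cnn1 at 0.76 (1.69-fold), Acta2 1444105_at at 0.54 and Myl9 at 0.51. Tagln differed by 0.28 and Acta2 1416454_s_at by 0.24. In Cnn1, Myl9 and Tpm2 1425028_a_at all 8 second-run samples lay above all 8 first-run samples. Cald1 did not share the pattern: its probe sets differed by -0.47, -0.12, -0.11 and 0.10. The order of the genes by run difference was not their order by genotype, since Cnn1 came second by run and differed by 0.03 between genotypes.

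**Figure D4:**
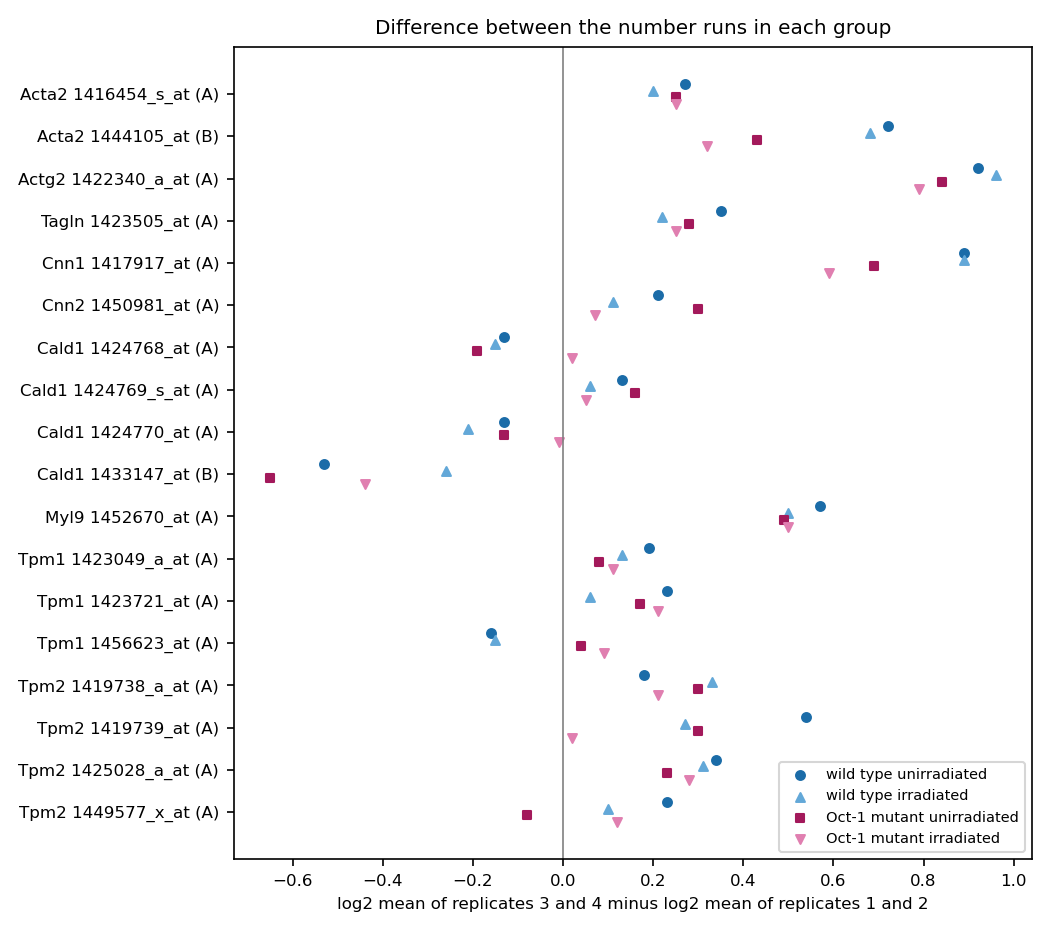
Log2 mean of replicates 3 and 4 minus log2 mean of replicates 1 and 2 (x axis) in each of the 4 groups (symbols) for each tested probe set (y axis, array type in brackets). Actg2 lies between 0.79 and 0.96 and Cnn1 between 0.59 and 0.89 in all 4 groups, while the array B probe set of Cald1 lies between -0.65 and -0.26.

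Other measures moved with the runs and with genotype. The mean level of the 7 smooth muscle and pericyte markers tested on array A was 0.49 higher in the second run, that of the 3 skeletal and cardiac markers 0.61, that of the 12 fibroblast markers 0.15 and that of the 3 epithelial markers 0.04. The 3′ minus 5′ difference of the Gapdh control probe sets on array A, an indicator of RNA integrity and labelling, was -0.24 to -0.02 in the first run and -0.01 to 0.16 in the second, while that of the Actb control was 0.27 to 0.42 and 0.32 to 0.43. Between genotypes, the mean level of the 12 fibroblast markers was 10.72 to 10.97 in wild type samples and 11.15 to 11.56 in mutant samples, without overlap. The rise was uneven among the 12 genes. Averaged over irradiation, their median difference was 0.19, against 2.01 for Dcn, 1.46 for Lum and 0.76 for Fap. Of the 12, 5 were called higher without the block and 10 with it, and 0 were called lower in either fit. The smooth muscle and pericyte marker level was 7.52 to 8.36 in wild type and 7.70 to 8.47 in mutant samples. The part of these markers and of RNA quality in the contractile gene differences was not tested.

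Genes whose pattern was most like that of Acta2 were sought over the 16 array A samples, after each run's mean had been removed. Among 13575 probe sets, those most like Acta2 1416454_s_at outside the 9 genes were Emp3 (Pearson r = 0.89), Sdf2 (0.88), Enc1 (0.88), Galm (0.87) and Bgn (0.87). Tagln stood at rank 4 with r = 0.88 and Tpm2 1419738_a_at at rank 146 with 0.78. Actg2 (0.68), Myl9 (0.65) and Cnn2 (0.56) followed, Cnn1 was at 0.22, and Cald1 1424768_at at -0.46. These correlations describe samples that share arrays and treatment groups.

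Other genes of the contractile apparatus did not move in one direction. Of 20 further muscle-type contractile and Z-disc related genes tested, 2 rose and 1 fell in the mutant averaged over irradiation. The median difference of the 20 genes was -0.01. In the same comparison, 6.25% of all probe sets were called without the block and 13.9% with it. Synpo, an actin-bundling protein of stress fibres, rose by 0.76 (SE 0.13, adjusted p = 0.00112). Mylk, the kinase that phosphorylates the product of Myl9, rose by 0.53 (SE 0.11, adjusted p = 0.00574), and smoothelin (Smtn) fell by 0.28 on the log2 scale (SE 0.08, adjusted p = 0.0357). With the block 6 rose and 6 fell, Myh11 among those that rose (0.74, adjusted p = 0.000816; 0.102 without the block). Of 10 broadly expressed cytoskeletal relatives, 1 rose in either fit, the non-muscle light chain gene Myl12b (0.26, SE 0.05, adjusted p = 0.00126).

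Among 19 stress fibre and focal adhesion genes, 2 rose and 1 fell in the mutant, and 3 rose and 1 fell with the block. Of all probe sets, 6.25% and 13.9% were called in these 2 fits. The collagen receptor subunit gene Itga1 rose by 0.95 (adjusted p = 0.000189) and zyxin (Zyx) by 0.36 (adjusted p = 0.00067), while the fibronectin receptor subunit gene Itga5 fell by 0.32 on the log2 scale (adjusted p = 0.0486).

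Among 21 regulators of contractile gene transcription and contraction, 3 rose and 1 fell in either fit. The shares of all probe sets called were 6.25% without and 13.9% with the block. Klf4, a repressor of smooth muscle genes, rose by 0.78 (SE 0.07, adjusted p = 3.28e-06), Wwtr1, which encodes the coactivator TAZ, by 0.26 (adjusted p = 0.00306) and Gata6 by 0.24 (adjusted p = 0.0192). Elk3, an ETS partner of SRF, fell by 0.20 on the log2 scale (adjusted p = 0.0132). Srf itself differed by -0.09 on 1418255_s_at (SE 0.07, adjusted p = 0.532; blocked 0.4).

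Of 21 TGF-beta pathway genes and targets tested, 4 rose and 0 fell, and 11 rose and 2 fell with the block. Called shares over all probe sets were 6.25% and 13.9%. The median difference of the 21 genes was 0.17 against 0.01 over all probe sets. The receptor genes Tgfbr1 and Tgfbr2 rose by 0.38 (adjusted p = 0.00322) and 0.35 (adjusted p = 0.00233), the matrix gene Tgfbi by 0.71 (adjusted p = 0.000485), and Lox, the collagen crosslinking enzyme, by 0.23 (adjusted p = 0.000671). The ligand gene Tgfb1 was 0.24 higher (adjusted p = 0.266; blocked 0.0148) and the matricellular target Ccn2 differed by -0.11 (adjusted p = 0.269; blocked 0.0412).

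Irradiation, averaged over genotype, called none of the muscle-type, cytoskeletal, focal adhesion or TGF-beta genes in the fit with 4 group means. With the block, 0 rose and 3 fell of the 20 muscle-type genes (Mylk, Synpo and Fhl1), and 0 of the 10 cytoskeletal relatives passed. In the same fit 1 rose and 4 fell of the 19 focal adhesion genes, and 0 rose and 5 fell of the 21 TGF-beta genes. Over all probe sets, this comparison called 7.51% with 4 group means and 14.9% with the block. Of the 21 regulators, Klf4 rose by 0.68 (adjusted p = 1.36e-05) and Klf5 by 0.34 (adjusted p = 0.0166), and Ppp1cb, the catalytic subunit gene of myosin phosphatase, fell by 0.43 on the log2 scale (adjusted p = 0.0466). With the block 2 rose and 2 fell, the added gene being Yap1 (-0.21, adjusted p = 0.0134), which encodes the mechanosensitive coactivator YAP. Klf4 rose in irradiated cells of both genotypes, by 0.84 in wild type and 0.53 in the mutant, in the same samples in which no member was called.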

How the data were processed

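The values are log2 probe set summaries as deposited by the authors. Array A values spanned 0.265 to 15.75 and array B values 0.097 to 15.51, from which base 2 was inferred. How they were summarised is not stated in the labels. Array medians agreed within each type (6.16 to 6.28 and 3.67 to 3.78), so nothing was rescaled. Array A held 22690 and array B 22575 probe sets, of which 20393 and 14674 had 1 gene symbol, 691 and 245 several and 1606 and 7656 none. Symbols were updated through gene identifiers to GRCm38.p6 for 20364 and 14499. Controls (64 per type) were left out, and the dimmest 40% of probe sets by mean were dropped, leaving 13576 and 13507.

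limma 3.58.1 (R 4.3.3) fitted 4 group means per array type, with all 16 samples sharing 1 variance estimate and with a variance trend. Benjamini-Hochberg adjustment ran within array type and comparison, and calls needed an adjusted p under 0.05. The replicate block uses the replicate numbers in the labels. For Oct-1 mutant unirradiated replicate 1 the array A label lacks the number, which came from array B. Deviations from group means of same-numbered samples correlated in every pair (24 of 24 per array type, r = 0.32 to 0.72 and 0.24 to 0.60), and about as much between different numbers of one run (0.24 to 0.71 and 0.19 to 0.58). No 2 samples were identical. The fit with 4 group means was also run on simulated data with independent noise. Those data held no runs, so the simulation cannot show how the runs affect either fit. Python 3.11.15, numpy 2.4.6, pandas 2.3.3 and matplotlib 3.10.9 made summaries and figures.

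The members and gene lists were chosen with earlier results of these data known. All member probe sets are reported. From each other list up to 4 called genes with the lowest adjusted p were named per comparison, or all where up to 6 were called, and Actb, Srf, Tgfb1, Ccn2, Myh11, Des and Myod1 whatever their values. A listed gene was represented by its brightest tested probe set, array A first. The 5 probe sets most like Acta2 were taken by Pearson r.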

Additional observations from a re-analysis of the deposited data

Results flagged for a closer look

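In 72 member probe set and group combinations, the gap of an extreme sample to its neighbour was divided by the range of the group. This share exceeded Dixon's 95% limit for 4 values in 3 of them. Chance alone marks about 1 in 20 sets of independent values. Samples of one run deviated together, so that rate need not apply here. Cald1 1424769_s_at read 13.29 in Oct-1 mutant irradiated replicate 3, against 13.16 to 13.18 in the others. Tpm1 1456623_at read 8.39 in wild type unirradiated replicate 4, against 8.66 to 8.68. Tpm2 1449577_x_at read 10.66 in wild type unirradiated replicate 3, against 10.21 to 10.24.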

How the results depend on the processing

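No member difference changed direction among the calls tracked. Irradiation counts and the comparison of irradiation effects stayed at 0 under all 8 alternatives and in the 16 unblocked fits without 1 extract. In unirradiated cells the genotype count of 0 became 4 with the replicate block, 4 with the run as block, 2 within the first run and 1 within the second, and was 0 to 1 without 1 extract. In irradiated cells the count of 1 became 3 with the replicate block, 3 with the run as block and 2 within the second run, and was 0 to 1 without 1 extract. Averaged over irradiation, 1 became 9 with either block, 3 and 2 within the first and second run, 0 without the filter and 0 after quantile normalization, and was 0 to 3 without 1 extract. The cause was not tested. Blocked fits without 1 extract, added after seeing the data, called 2 to 5, 2 to 3 and 7 to 9 members in these comparisons. The number of arrays limits the precision.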

Other observations

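Markers of fibroblasts and of cells around vessels were called for irradiation and for genotype. Over all probe sets, averaged irradiation called 7.51% (14.9% with the block) and averaged genotype 6.25% (13.9% with the block). Averaged over genotype, irradiated cells had higher Notch3, the pericyte and smooth muscle receptor gene (1.96, SE 0.21, adjusted p = 9.78e-06 in limma), and lower Pdgfrb (-0.56, SE 0.13, adjusted p = 0.0107), out of 8 tested genes of that list. Of 12 fibroblast markers 3 fell with irradiation, namely Pdgfra (-0.72, adjusted p = 0.000561), Twist1 (-0.49, adjusted p = 0.000921) and Prrx1 (-0.42, adjusted p = 0.000117), and with the block P4hb rose by 0.18 as well. The epithelial keratin gene Krt19 also rose with irradiation in the blocked fit (0.16, adjusted p = 0.0395). In the mutant 5 fibroblast markers rose and 0 fell, and 10 rose with the block. The proteoglycan genes Dcn (2.01, SE 0.23, adjusted p = 2.67e-05) and Lum (1.46, SE 0.30, adjusted p = 0.00505) led them, followed by Fap (0.76, adjusted p = 0.0489), Pdgfra (0.49, adjusted p = 0.0103) and Thy1 (0.49, adjusted p = 0.0294).

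Of 8 smooth muscle and pericyte markers tested, Smtn alone fell in the mutant with 4 group means, and 2 rose and 3 fell with the block. Of 4 skeletal and cardiac markers none passed between genotypes, and Tnnt2 fell with the block (-0.40, adjusted p = 0.0108). Of 4 epithelial markers Krt18 rose in either fit (0.46, adjusted p = 0.0165). Of 3 macrophage markers none passed with 4 group means, and Lyz2 rose with the block (0.43, adjusted p = 0.021).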
